A study of Mus musculus with 4 samples.

Results

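The expression of 9 genes that write, read and erase DNA methylation was examined in RNA-Seq libraries of CD4+ T cells isolated from mouse lung tumors. The genes were given by name, and all 9 were found among the 25239 gene symbols of the deposited counts and were among the 13919 genes that passed the expression filter. They comprise the methyltransferase genes *Dnmt1*, *Dnmt3a* and *Dnmt3b*, the reader genes *Uhrf1* and *Mbd2*, and the eraser genes *Tet1*, *Tet2*, *Tet3* and *Tdg*. The study compared 2 libraries labelled WT with 2 labelled CD4/ALK4-KO, all described as CD4+ T cells of C57BL/6 mice. In the latter genotype, written CD4CreERT2+/-/Acvr1bfl/fl, tamoxifen induces Cre under the *Cd4* promoter and thus deletes *Acvr1b*, which encodes the activin receptor ALK4. Male mice of 8 to 10 weeks of age were used. The study's methods give tamoxifen on 5 consecutive days at 75 mg/kg, and they do not state separately whether WT mice received it. All mice carried lung tumors grown from LLC-OVA, Lewis lung carcinoma cells with an ovalbumin gene that were inoculated intravenously. The labels place tumor removal at 18 to 22 days, and the methods at 16 to 20 days. Whether animals were pooled for a library, and whether replicates were separate animals, is not stated, so p-values measure only the spread between these libraries.

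DNA methylation is placed on cytosines of CpG dinucleotides. DNMT3A and DNMT3B methylate new sites, whereas DNMT1 copies the mark to the daughter strand at replication, where UHRF1 recognises the hemimethylated site and recruits it. TET enzymes oxidise methylcytosine, and the glycosylase TDG excises the more oxidised bases so that repair restores an unmethylated cytosine, while MBD2 binds methylated CpG and brings in the NuRD repressor complex. In T cells, these enzymes are known for setting the accessibility of cytokine genes and of *Foxp3*.

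The genes that differed most between the labelled genotypes, *Dnmt3b* and *Tet1*, and those of maintenance methylation, *Dnmt1* and *Uhrf1*, are shown by the sequence around their start. Each window holds 250 bases before and 50 after a gene start of RefSeq on GRCm38.p6, and 8 of the 9 genes were matched, all except *Mbd2*. Capitals mark E2F-type letters (TTTGGCGC, TTTCCCGC, TTTCGCGC or TTTGCCGC) and CCAAT, searched on both strands, where CCAAT on opposite strands can overlap.
*Dnmt1*, chr9:20952574-20952873, minus strand: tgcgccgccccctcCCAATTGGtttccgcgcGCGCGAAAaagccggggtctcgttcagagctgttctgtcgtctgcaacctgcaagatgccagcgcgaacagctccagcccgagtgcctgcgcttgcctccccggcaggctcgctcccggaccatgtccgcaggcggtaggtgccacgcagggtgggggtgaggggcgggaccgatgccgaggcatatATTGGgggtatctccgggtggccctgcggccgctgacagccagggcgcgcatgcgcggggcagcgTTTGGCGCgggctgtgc
*Uhrf1*, chr17:56304063-56304362, plus strand: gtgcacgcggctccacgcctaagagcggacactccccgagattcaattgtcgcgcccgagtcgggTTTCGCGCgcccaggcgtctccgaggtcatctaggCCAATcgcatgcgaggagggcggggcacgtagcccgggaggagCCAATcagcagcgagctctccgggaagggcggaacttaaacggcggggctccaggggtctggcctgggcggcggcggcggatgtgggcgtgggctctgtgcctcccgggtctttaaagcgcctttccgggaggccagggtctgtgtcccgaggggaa
*Dnmt3b*, chr2:153649199-153649498, plus strand: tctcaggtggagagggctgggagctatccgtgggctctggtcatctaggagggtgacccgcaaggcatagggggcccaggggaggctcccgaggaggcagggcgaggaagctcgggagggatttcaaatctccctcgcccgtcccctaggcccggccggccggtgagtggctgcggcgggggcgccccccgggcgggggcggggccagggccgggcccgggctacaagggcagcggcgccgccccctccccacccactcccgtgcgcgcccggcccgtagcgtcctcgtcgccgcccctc
*Tet1*, chr10:62887275-62887574, minus strand: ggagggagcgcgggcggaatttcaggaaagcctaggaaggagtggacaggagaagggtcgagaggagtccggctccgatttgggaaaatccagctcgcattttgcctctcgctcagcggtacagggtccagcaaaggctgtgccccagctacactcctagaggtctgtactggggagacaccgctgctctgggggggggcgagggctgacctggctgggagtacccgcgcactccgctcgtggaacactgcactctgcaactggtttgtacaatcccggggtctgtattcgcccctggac
The *Dnmt1* window held 2 E2F-type matches and that of *Uhrf1* held 1, whereas those of *Dnmt3b* and *Tet1* held 0. Such letters occurred in 2.26% of 32851 RefSeq windows of the same length, not matched for CpG content, and CCAAT in 37.4%. The shown windows of *Dnmt1* and *Uhrf1* each contained 33 CpG dinucleotides, more than 91.4% of all windows. These windows were shown because they hold E2F-type letters, which the other starts did not, so the share over all windows is not a like comparison. The shown *Dnmt1* start is the most downstream of the starts listed for that gene. The other starts held 2 and 12 CpG for *Dnmt1* and 12 for *Uhrf1*. *Dnmt3b* had 30 CpG and *Tet1* had 17, against a median of 7 over all windows. The CpG-richest window was that of *Tet2* with 57, above 99.8% of all windows. *Dnmt3a* had 46, 47 and 18 CpG at its 3 starts, *Tet3* had 22 and *Tdg* had 26. No E2F-type letters were found in these windows or in that of *Tet2*, and CCAAT occurred once each in those of *Tet3* and *Tdg*. A match describes the letters only, and neither binding nor methylation was measured in these libraries.

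The total counts ranged from 11823908 to 13943237. Counts were scaled with TMM, the trimmed mean method of edgeR, and levels are given as CPM, the count as a share of the scaled library size in parts per 10 to the power of 6. The targeted gene *Acvr1b* (chromosome 15, 101174067 to 101213684) had 426 and 342 counts under the WT label and 322 and 445 under the CD4/ALK4-KO label, and a log2 fold change of 0.16 with a 95% interval from -0.34 to 0.67. The counts cover the whole gene and not the deleted part alone, and they include RNA of other cells. They therefore did not check the labels, and every direction below holds between the libraries as they are labelled. All 16 genes of a T cell identity list rose, and their summed level was 535 to 571 CPM in the libraries labelled WT and 2921 to 3060 CPM in those labelled CD4/ALK4-KO. Markers of other cells, summed over each list, were present in all libraries. The summed level of 12 macrophage and monocyte genes was 6751 to 7622 CPM against 6389 to 6639 CPM, and that of 7 fibroblast genes was 6712 to 7307 CPM against 3965 to 4773 CPM. All 9 B cell genes and all 5 genes of CD8 T cells and NK cells rose too, the former from 65.6 to 78.4 CPM summed to 251 to 493 CPM. Of 12 macrophage and monocyte genes 1 rose, and of 7 fibroblast genes 4 fell. Of 9 neutrophil genes 3 rose, and of 8 tested epithelial genes 2 rose and 4 fell. Of 7 endothelial genes 1 rose and 1 fell, and of 4 tested erythroid genes 1 fell. The most abundant gene of each list had log2 fold changes of 2.16 (*Cd3g*), 1.42 (*Gzma*), 1.69 (*Cd79b*), -0.15 (*Lyz2*, macrophages), 0.0056 (*S100a9*, neutrophils), -0.73 (*Scgb1a1*, epithelium), -0.93 (*Col3a1*, fibroblasts), 1.72 (*Pecam1*, endothelium) and -0.65 (*Alas2*, erythroid cells). *Alas2* varied most, at 1963 and 4469 CPM in the libraries labelled WT, and leaving out single libraries gave values between -1.42 and 0.049. *Pecam1* was the highest of the 7 endothelial genes, whose median was -0.67 with 3 above 0. Medians were 0.49 for the neutrophil list, with 8 of 9 genes above 0, and -0.26 for the macrophage list. They were -0.66 for epithelium, -0.69 for fibroblasts, -0.76 for erythroid cells, 2.15 for CD8 T cells and NK cells and 2.57 for B cells. In such bulk samples, fewer cells of a type and less RNA per cell cannot be told apart.

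Of the 9 genes, 5 rose and 1 fell in the libraries labelled CD4/ALK4-KO. *Dnmt3a*, *Dnmt3b*, *Tet1*, *Tet2* and *Tet3* were higher, *Uhrf1* was lower, and *Dnmt1*, *Mbd2* and *Tdg* did not pass an adjusted p of 0.05. Over all genes tested with edgeR's quasi-likelihood test, 17.4% were higher and 15.4% lower at this threshold, or 32.8% in either direction. The median log2 fold change of the 9 genes was 0.75, against -0.0082 over all genes tested. The libraries of the 2 genotypes did not overlap for 6 genes that were higher and 1 that was lower, as was so for 32.7% and 34% of all genes tested, or 66.7% in either direction. The level in each library is drawn in the plot of CPM by library.

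**Figure D1:**
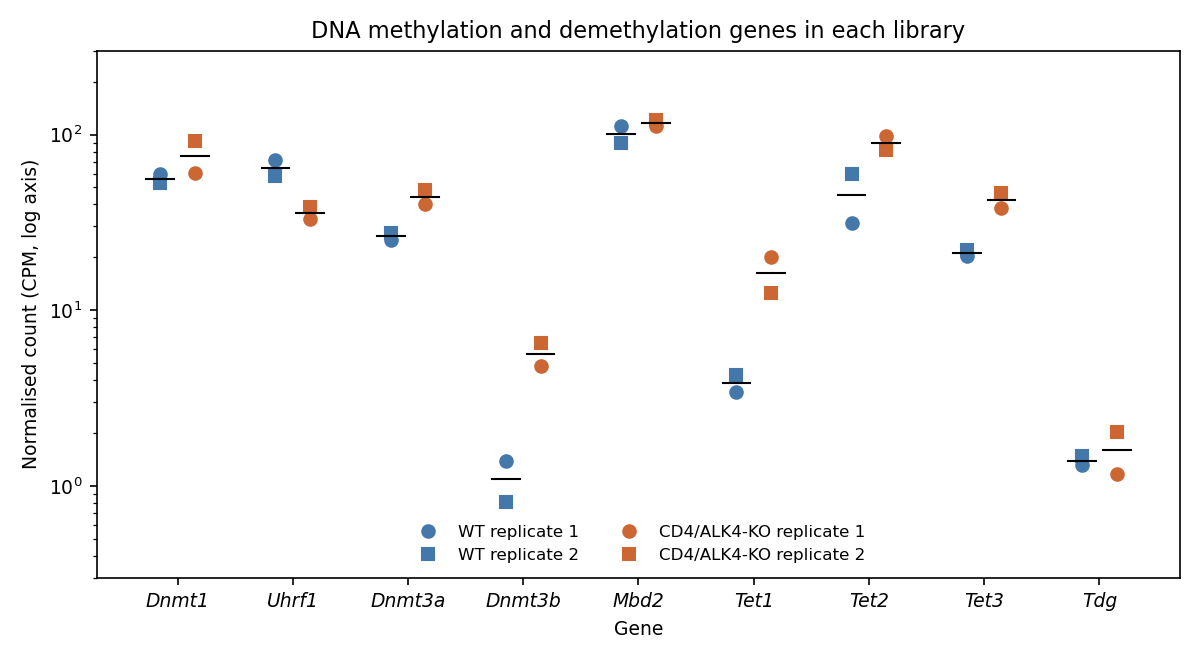
Normalised counts (CPM, log axis) of the 9 genes in each library, with blue points for the libraries labelled WT, orange points for those labelled CD4/ALK4-KO and black bars for group means. *Dnmt3b* and *Tet1* lie several-fold higher in both orange libraries, *Uhrf1* lies lower, and *Mbd2* and *Tdg* overlap.

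The de novo methyltransferases were both higher under the CD4/ALK4-KO label. *Dnmt3b* (ENSMUSG00000027478.15, chromosome 2, 153649450 to 153687730) had 19 and 11 counts under the WT label and 57 and 80 under the CD4/ALK4-KO label. It was scarce in every library, yet the lower of its counts under the second label was 3 times the higher one under WT. Its level was 1.10 ± 0.405 CPM (SD, n = 2) in the libraries labelled WT and 5.63 ± 1.2 CPM (SD, n = 2) in those labelled CD4/ALK4-KO. The log2 fold change of 2.35 (standard error, SE, 0.50, adjusted p = 0.00097, edgeR) corresponds to 5.09-fold and was the largest of the 9 genes. Of the 75-base windows of its transcripts, 6.17% also occur in transcripts of the related gene *Dnmt3c*, which limits the certainty of so few counts.

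*Dnmt3a* (ENSMUSG00000020661.15, chromosome 12, 3806007 to 3914443), the more abundant de novo enzyme gene, had 346 and 370 counts under the WT label and 480 and 597 under the CD4/ALK4-KO label. The replicates lay close together, and the genotypes did not overlap. Its level rose from 26.3 ± 1.49 to 44.3 ± 5.68 CPM (SD, n = 2 each), and the log2 fold change was 0.75 (SE 0.23, adjusted p = 0.015, edgeR). This call was lost without WT replicate 1 (0.69, adjusted p = 0.24, edgeR) and without WT replicate 2 (0.80, adjusted p = 0.13, edgeR), over a range of 0.0011 to 0.24 for the adjusted p under 12 alternatives. The 12 alternatives, here and for the genes below, leave out scaling to T cell receptor genes. On that scale, described further below, *Dnmt3a* was called lower, at -1.43 (adjusted p = 9.3e-07, edgeR). The alternatives include scaling to macrophage genes, which was chosen after the data were seen. The antisense gene *Dnmt3aos*, which shares 133 exonic bases with *Dnmt3a*, had between 0 and 4 counts.

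In maintenance methylation, the cofactor gene fell while the enzyme gene did not pass the threshold. *Uhrf1* (ENSMUSG00000001228.14, chromosome 17, 56303321 to 56323486) had 981 and 781 counts under the WT label and 395 and 478 under the CD4/ALK4-KO label. Both libraries labelled WT were the higher ones, also after scaling to 64.7 ± 9.79 and 36.0 ± 3.91 CPM (SD, n = 2 each). The log2 fold change was -0.85 (SE 0.22, adjusted p = 0.0057, edgeR), and without WT replicate 1 it was -0.69 and no longer called (adjusted p = 0.19, edgeR, 0.00030 to 0.19 over 12 alternatives). Of its 75-base windows, 9.05% occur also in transcripts of *Gm5648*, which had no row among the counts.

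*Dnmt1* (ENSMUSG00000004099.16, chromosome 9, 20907209 to 20959888) had 814 and 713 counts under the WT label and 715 and 1134 under the CD4/ALK4-KO label. CD4/ALK4-KO replicate 2 stood well above the other 3 libraries, which lay between 52.7 and 60.1 CPM. The log2 fold change was 0.44 (95% interval -0.040 to 0.92, adjusted p = 0.15, edgeR). Without CD4/ALK4-KO replicate 1 it was 0.74 and called (adjusted p = 0.0025, edgeR, 0.0025 to 0.78 over 12 alternatives), and without CD4/ALK4-KO replicate 2 it was 0.094. The genes were also compared in level per length, the value per kb of annotated exon. *Uhrf1* was at 15.2 ± 2.30 CPM per kb and *Dnmt1* at 7.60 ± 0.641 CPM per kb in the libraries labelled WT (SD, n = 2), where the libraries did not overlap. In those labelled CD4/ALK4-KO the levels per length were 8.44 ± 0.918 and 10.3 ± 3.05 CPM per kb. These libraries overlapped, but *Dnmt1* was the higher gene within each.

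All 3 TET genes were higher under the CD4/ALK4-KO label. *Tet1* (ENSMUSG00000047146.17, chromosome 10, 62804570 to 62908996) had 47 and 58 counts under the WT label and 239 and 155 under the CD4/ALK4-KO label. The lowest of the latter was well above both of the former. The genotypes did not overlap, and its level rose from 3.86 ± 0.607 to 16.3 ± 5.32 CPM (SD, n = 2 each), which is 4.22-fold, with a log2 fold change of 2.08 (SE 0.34, adjusted p = 5.7e-05, edgeR).

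*Tet2* (ENSMUSG00000040943.12, chromosome 3, 133463679 to 133545139), the most abundant TET gene, had 430 and 804 counts under the WT label and 1163 and 1009 under the CD4/ALK4-KO label. The libraries labelled WT differed from each other by more than those labelled CD4/ALK4-KO did, at 31.4 and 59.4 CPM, and the genotypes did not overlap. The log2 fold change was 0.98 (SE 0.26, adjusted p = 0.0057, edgeR). It was 0.59 and not called without WT replicate 1 (adjusted p = 0.30, edgeR, 3.3e-06 to 0.30 over 12 alternatives), and 1.51 without WT replicate 2.

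*Tet3* (ENSMUSG00000034832.15, chromosome 6, 83362373 to 83459084) had 280 and 298 counts against 457 and 573. Its libraries were the most even among the TET genes in the group labelled WT, and the genotypes did not overlap. The level rose from 21.2 ± 1.13 to 42.4 ± 5.67 CPM (SD, n = 2 each), and the log2 fold change was 1.00 (SE 0.24, adjusted p = 0.0025, edgeR). Without WT replicate 1 the value was 0.94 (adjusted p = 0.085, edgeR, 3.7e-05 to 0.085 over 12 alternatives).

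The remaining eraser and reader genes did not separate the genotypes. *Tdg* (ENSMUSG00000034674.18, chromosome 10, 82629828 to 82650799) had 18, 20, 14 and 25 counts, in the order WT replicates 1 and 2 and CD4/ALK4-KO replicates 1 and 2. The log2 fold change of 0.20 had a 95% interval from -1.03 to 1.43, so that changes of more than 2-fold in either direction could not be told from none at this depth. Its low counts come with a limit of the counting, since 33.8% of its 75-base windows occur also in transcripts of other genes, among them *Tdg-ps*. The opposite strand gene *Glt8d2*, which shares 367 bases or 6.83% of its exons, had 129 and 120 counts against 38 and 35. *Mbd2* (ENSMUSG00000024513.16, chromosome 18, 70568189 to 70626131) was the most abundant of the 9 genes, with 1525 and 1213 counts under the WT label and 1324 and 1497 under the CD4/ALK4-KO label. The groups overlapped, with a log2 fold change of 0.21 (95% interval -0.23 to 0.65, adjusted p = 0.48, edgeR).

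Ordered by level per length in the libraries labelled WT, *Mbd2* (31.3 CPM per kb) and *Uhrf1* came first, followed by *Dnmt1*, *Tet2* (2.69), *Dnmt3a* (1.58) and *Tet3* (1.27). *Tdg* (0.260), *Tet1* (0.250) and *Dnmt3b* (0.215) came last, and their libraries overlapped. In the libraries labelled CD4/ALK4-KO *Mbd2* (36.2 CPM per kb) was again first, and *Dnmt1* and *Uhrf1* overlapped in the next places. Within each of these libraries *Dnmt1* was the higher, at 8.14 against 7.79 and 12.5 against 9.09. *Tet2* (5.32), *Dnmt3a* (2.66) and *Tet3* (2.54) followed, the last pair with overlapping libraries. *Dnmt3a* was above *Tet3* within each library, at 2.42 against 2.30 and 2.91 against 2.78. *Dnmt3b* (1.10) and *Tet1* (1.06) also overlapped and stood above *Tdg* (0.298). The exon lengths are those of all annotated transcripts together, which lowers these levels for genes with long alternative exons.

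Since the T cell identity genes rose with a median log2 fold change of 2.41, from 1.97 to 3.0, the 9 genes were also put on a T cell receptor scale. Here the libraries were scaled to the summed counts of *Cd3d*, *Cd3e*, *Cd3g* and *Cd247*, which moved the median log2 fold change of all genes to -2.19. On this scale *Dnmt3b* was at 0.19 (adjusted p = 0.75, edgeR) and *Tet1* at -0.13 (adjusted p = 0.75, edgeR), and neither passed the threshold. The other 7 genes were called lower there, as were 92% of all genes tested, and 0.345% were called higher. *Tet3* was at -1.18, *Tet2* at -1.22, *Dnmt3a* at -1.43 and *Dnmt1* at -1.73. *Tdg* (-1.96) and *Mbd2* (-1.97) lay near the median of all genes, and *Uhrf1* (-3.02) lay below it. When the libraries were scaled to the 12 macrophage and monocyte genes instead, a scale chosen after the data were seen, the same 5 genes were called higher and *Uhrf1* lower. On that scale 2948 genes were higher and 1509 lower in all, against 2422 and 2140 with TMM. Whether a different content of T cells, B cells or fibroblasts enters these differences was not tested.

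**Figure D2:**
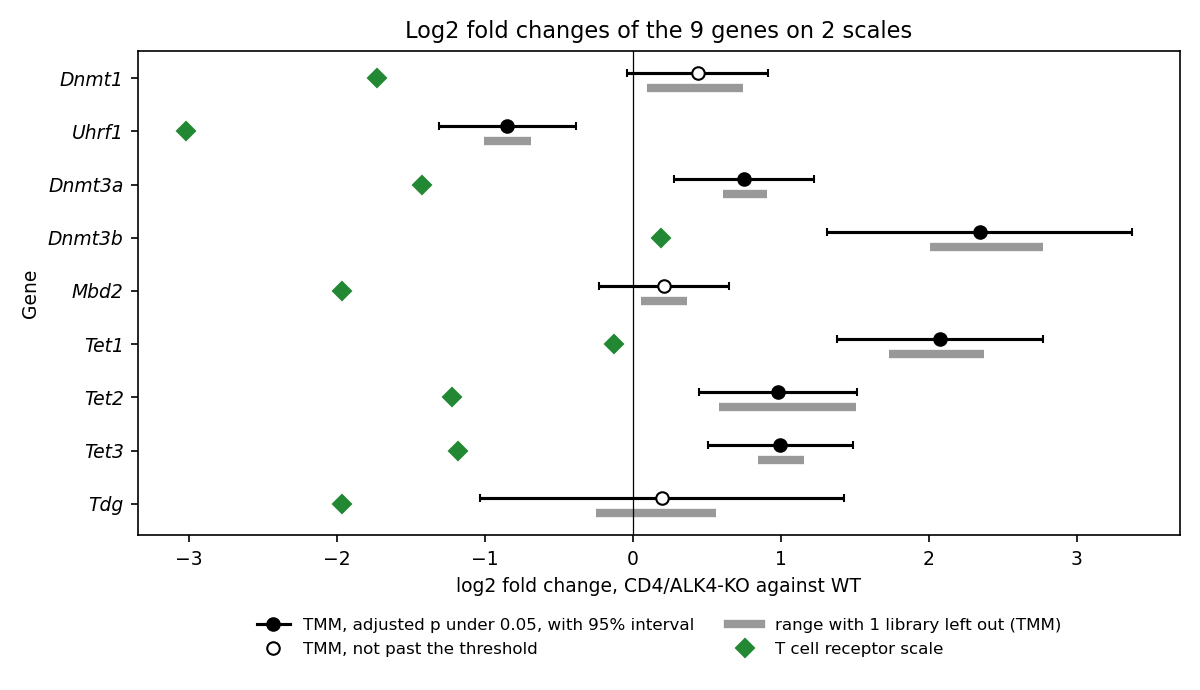
Log2 fold changes of the 9 genes between the libraries labelled CD4/ALK4-KO and WT, as circles with 95% intervals for TMM (filled where the adjusted p is under 0.05), grey bars for the range with each library left out in turn, and green diamonds for the T cell receptor scale. With TMM, 5 filled circles lie right of 0 and *Uhrf1* lies left of it, whereas on the T cell receptor scale only *Dnmt3b* (0.19) lies above 0.

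Ratios of 2 genes inside a library do not depend on the scaling between libraries, and are given as log2 ratios of counts per kb with 0.5 added to each count. The ratio of *Uhrf1* to *Dnmt1* was 1.06 and 0.92 under the WT label and -0.063 and -0.45 under the CD4/ALK4-KO label. It differed by -1.25 between the genotypes, and from -1.45 to -1.06 with each library left out in turn. The ratio of *Dnmt3b* to *Dnmt3a* was -2.45 and -3.31 against -1.36 and -1.19, a difference of 1.60. Within the TET family, the ratio of *Tet1* to *Tet2* was -3.05 and -3.66 against -2.15 and -2.57, a difference of 0.99, so *Tet1* remained the scarcer gene in all 4 libraries. The ratio of *Tet3* to *Tet2* overlapped, at -0.60 and -1.42 against -1.33 and -0.80. That of *Dnmt3a* to *Dnmt1* was -2.41 and -2.12 against -1.75 and -2.10, groups that were apart by less than the spread within each. That of *Tdg* to *Tet2* was -2.89 and -3.64 against -4.68 and -3.66, likewise barely apart. An exact permutation test of 2 against 2 libraries, two-sided, cannot go below p = 0.33, which was reached in 5 of these 6 ratios.

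*Dnmt1* and *Uhrf1* are known to be transcribed with DNA replication, so each gene was set against 12 replication genes of S phase in the same library. The median log2 fold change of these 12 genes was -0.51, with 3 lower and 0 higher, and 1 was lower without WT replicate 1 and 7 without CD4/ALK4-KO replicate 1. Relative to their mean log2 level, *Uhrf1* was at -0.47 and -0.71 under the WT label and -1.07 and -0.65 under the CD4/ALK4-KO label, which overlapped. The difference of -0.27 for *Uhrf1* was smaller than the SD of 0.30 under the CD4/ALK4-KO label, and against 10 mitotic genes it was 0.016. *Dnmt1* was at -0.74 and -0.84 against -0.22 and 0.59, a difference of 0.97, which was 0.57 without CD4/ALK4-KO replicate 2. The other 7 genes were higher relative to the S phase genes in both libraries labelled CD4/ALK4-KO than in both labelled WT, with differences from 0.69 for *Tdg* to 2.52 for *Dnmt3b*. The difference for *Tdg* was 1.09 when CD4/ALK4-KO replicate 1 was left out and 0.29 when replicate 2 was. The S phase genes themselves had a median of -0.51, against -0.0082 over all genes tested. A gene that is level with TMM therefore also lies higher on this measure. The share of all genes that did so was not counted. The exact permutation p was 0.67 for *Uhrf1* and 0.33, the smallest possible, for the other 8 genes.

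**Figure D3:**
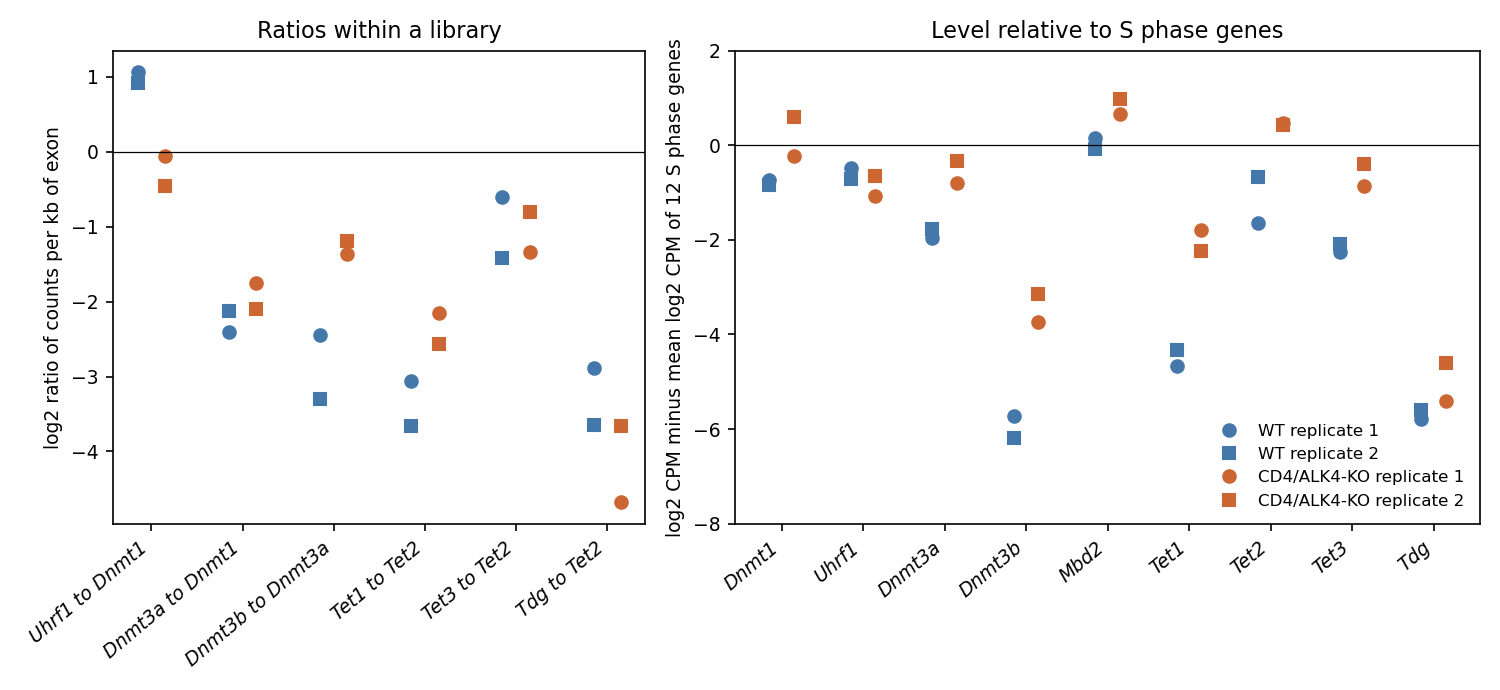
Log2 ratios of counts per kb between pairs of the genes (left) and log2 CPM of each gene minus the mean log2 CPM of 12 S phase genes (right), with 1 point for each library, blue for WT and orange for CD4/ALK4-KO labels. The ratio of *Uhrf1* to *Dnmt1* lies near 1 in the blue libraries and below 0 in the orange ones, whereas *Uhrf1* relative to S phase genes overlaps.

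The wider pathway was covered by 9 lists with 97 genes, of which 84 were tested. Of these, 10 rose and 26 fell, or 11.9% and 31.0%, against 17.4% and 15.4% of all genes tested, and their median log2 fold change was -0.37. The lists include S phase, mitotic and germline genes, which are not methylation machinery. Of these, 3 of 12, 8 of 10 and 2 of 4 tested genes fell and 0 rose. The shares over all 84 therefore do not describe the methylation machinery alone. Over all 84 genes the counts were 3 and 11 without WT replicate 1, and 4 and 12 without WT replicate 2. The block of replicate numbers gave 6 and 17. On the T cell receptor scale 82 of the 84 were called lower. Of the 32 higher or lower pathway genes that the rule for named genes selected, 19 lost the call without WT replicate 1 and 17 without WT replicate 2, and 2 and 4 without CD4/ALK4-KO replicates 1 and 2. The replicate block lost 9 of these calls, the macrophage scale 5, upper quartile scaling 2 and DESeq2 1. The 9 of them that were higher with TMM were below 0 on the T cell receptor scale. Each tested gene is drawn in the plot of the pathway lists.

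**Figure D4:**
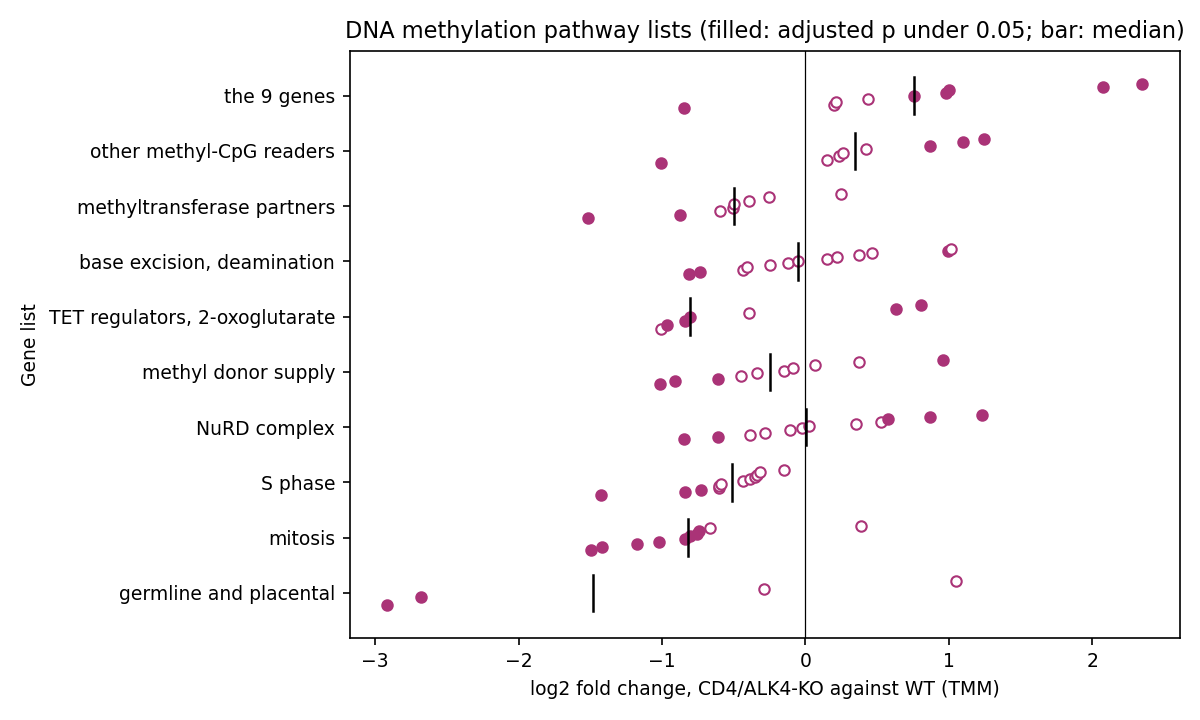
Log2 fold changes with TMM of the tested genes of each list between the libraries labelled CD4/ALK4-KO and WT, with 1 point for each gene, filled where the adjusted p is under 0.05, and a black bar for the median of the list. The 9 genes have their median at 0.75, whereas those of S phase (-0.51) and mitosis (-0.82) lie left of 0.

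Among 8 other readers of methylated CpG, 3 rose, 1 fell and 4 did not pass the threshold, with a median of 0.34. *Mbd1*, a methyl-CpG binding protein gene, had 453 and 405 counts against 728 and 913. It rose with 1.10 (SE 0.22, adjusted p = 0.00060, edgeR). *Mbd3*, whose protein replaces MBD2 in the alternative form of NuRD, fell with -1.01 (adjusted p = 0.0019, edgeR), from 845 and 746 counts to 286 and 419. *Uhrf2*, the paralog of *Uhrf1*, was the most abundant of these readers and was at 0.15 (adjusted p = 0.62, edgeR). *Zbtb38*, a zinc finger reader, rose with 0.87. Of 12 genes of NuRD, 3 rose, 2 fell and 7 did not pass, with a median of 0.0029. *Gatad2b*, a scaffold subunit, rose with 1.23 and the remodeller gene *Chd4* with 0.87, while the histone-binding subunit gene *Rbbp7* fell with -0.61 (adjusted p = 0.034, edgeR) and *Cdk2ap1* with -0.85 (adjusted p = 0.030, edgeR). Without either WT library, with the replicate block and on the macrophage scale 0 NuRD genes were lower, and leaving out single libraries gave 1 to 5 higher.

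Among 8 tested partners of the methyltransferases, 2 fell and 0 rose, with a median of -0.50, and 1 fell without WT replicate 1, 0 without WT replicate 2 and 4 without CD4/ALK4-KO replicate 1. *Dnmt3l*, the catalytically inactive partner of the de novo enzymes, had 71 and 77 counts against 24 and 22, and the log2 fold change was -1.51 (SE 0.45, adjusted p = 0.012, edgeR). It moved opposite to *Dnmt3a* and *Dnmt3b*. *Hells*, a chromatin remodeller needed for methylation of repeats, fell with -0.88 (adjusted p = 0.0064, edgeR), and leaving out single libraries gave -1.25 to -0.57. *Pcna*, the replication clamp, was the most abundant and was at -0.50 (adjusted p = 0.083, edgeR).

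Of 13 tested genes of base excision and deamination, 1 rose, 2 fell and 10 did not pass, with a median of -0.054. None of these 3 calls held without WT replicate 1 or without WT replicate 2. *Neil1*, a glycosylase gene, rose with 1.00, while the endonuclease gene *Apex1* fell with -0.74 and *Gadd45a* with -0.81. TET enzymes need 2-oxoglutarate, and among 7 genes of their regulation and of this metabolite 2 rose and 3 fell, with a median of -0.81. The median was -0.41 without WT replicate 1, -0.37 without CD4/ALK4-KO replicate 1 and -0.60 with at least 10 counts in every library, and 0 of the 7 rose without WT replicate 1 or 2, with upper quartile scaling or with the replicate block. *Idh1*, which makes 2-oxoglutarate, had 3444 and 2944 counts against 1752 and 1494, and was at -0.81 (adjusted p = 0.0069, edgeR). *D2hgdh*, a dehydrogenase that removes the TET inhibitor 2-hydroxyglutarate, rose with 0.81 (adjusted p = 0.036, edgeR). *Cxxc5* fell with -0.84. *Ogt*, a TET-binding glycosyltransferase gene, rose with 0.63. In methyl donor supply, 1 of 10 genes rose and 3 fell, with a median of -0.25, and 1 fell without WT replicate 1 or 2. Methionine synthase, *Mtr*, rose with 0.96, and *Shmt2* (-1.01) and *Ahcy* (-0.61) were among those that fell, whereas *Mat2a*, which makes the methyl donor itself, was at -0.15 (adjusted p = 0.63, edgeR).

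Of 10 mitotic genes 8 fell and 0 rose, with a median of -0.82, and 5 fell without WT replicate 1 or 2. *Cdk1*, the mitotic kinase, had 2768 and 2568 counts against 936 and 747, and the log2 fold change was -1.49 (adjusted p = 1.8e-05, edgeR), and *Bub1* (-1.42), *Birc5* (-1.17), *Ccnb1* (-1.02) and the most abundant, *Top2a* (-0.84), fell as well. *Gins2*, a replication fork gene, fell with -1.42, *Rrm2* with -0.84 and *Cdc6* with -0.73, whereas the most abundant S phase gene, *Mcm6*, was at -0.35 (adjusted p = 0.23, edgeR). The proliferation marker *Mki67*, named here after its value was seen, was at 0.39 (adjusted p = 0.20, edgeR).

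A list of 15 germline and placental genes whose promoters are known to be silenced by methylation was mostly at or near 0. *Mael*, *Sycp1*, *Taf7l*, *Rhox6* and *Rhox9* had 0 counts in every library, and 4 of the 15 genes passed the filter. *Rhox5*, a homeobox gene of the X-linked Rhox cluster, had 3907 and 4114 counts under the WT label and 425 and 524 under the CD4/ALK4-KO label, and the log2 fold change was -2.91 (SE 0.23, adjusted p = 2.5e-08, edgeR). *Plac1*, a placental gene, had 456 and 785 against 76 and 97 counts and fell with -2.68. The remaining tested genes, *Ddx4* and *Sycp3*, had at most 33 counts and did not pass the threshold. In the same libraries 4 of 7 fibroblast genes were lower and 0 higher, and 4 of 8 tested epithelial genes were lower and 2 higher. The medians were alike for fibroblasts (-0.69), epithelium (-0.66), endothelium (-0.67) and erythroid cells (-0.76). The cell type lists held no markers for the inoculated LLC-OVA cells. The part of any of these cell types, of tumor cells or of methylation in the falls of *Rhox5* and *Plac1* was not tested.

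The pathway genes with the pattern most like a given gene were found by the root mean square difference of centred log2 CPM over the 4 libraries. For *Dnmt1* these were *Mta2* (0.085), *Gadd45b* (0.096) and *Zbtb4* (0.10) of 84 genes compared. For *Tet2* the closest were *Mtr* (0.17) and *Sycp3* (0.23). With 4 libraries in 2 groups, this measure describes likeness only and has no test.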

How the data were processed

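CD4+ T cells from lung tumors were sequenced in 4 libraries, grouped by genotype and numbered by the sample titles. Per the labels and the methods, the authors mapped single-end reads of 75 bases on mm10 using HISAT2, ran htseq-count in its nonempty intersection mode, and deposited the resulting raw counts for each gene symbol. The versions, the annotation and the strand option are not given in the sources used here. The library kit does not mark strand.

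From the counts, 13919 genes passed filterByExpr of edgeR 4.0.16 in R 4.3.3. After TMM scaling, genotype was tested alone in a robust quasi-likelihood model, with Benjamini-Hochberg adjustment over all genes tested. SE is the size of the log2 fold change over the root of its F value. Replicates differed beyond sampling noise, the chi-square over its degrees of freedom being 16.0 for WT and 28.7 for CD4/ALK4-KO. Gene locations and exon lengths are those of GENCODE M21 on GRCm38, the build of mm10, matched by symbol. The 75-base windows were compared among GENCODE transcripts only.

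The genes and lists were chosen with earlier results of these data known, so that no p was adjusted over a list and no list was tested. Named were all 9 genes, *Acvr1b*, and in each pathway list the most abundant gene and up to 4 called genes, by size of change, without overlap between genotypes. A few genes that this rule selected are not reported here. Of the cell type lists, the most abundant genes were *Cd3g*, *Gzma*, *Cd79b*, *Lyz2*, *S100a9*, *Scgb1a1*, *Col3a1*, *Pecam1* and *Alas2*. As alternatives, libraries were scaled by upper quartiles, by size factors of DESeq2, by T cell receptor genes and by macrophage genes. Genes were tested unfiltered or with a minimum of 10 counts per library, with replicate numbers as a block, with DESeq2 1.42.0, with the likelihood ratio test, and leaving out 1 library at a time.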

Additional observations from a re-analysis of the deposited data

How the results depend on the processing

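As with TMM, 5 of the 9 genes were higher and 1 lower with other size factors, upper quartile and macrophage scaling, both other filters, DESeq2 and the likelihood ratio test, and without CD4/ALK4-KO replicate 2. The scale and WT replicate 1 moved the calls most. Leaving out each library in turn gave 2 to 6 genes higher and 0 to 1 lower of the 9, and log2 fold changes of 0.094 to 0.74 for *Dnmt1*, -1.0 to -0.69 for *Uhrf1*, 0.61 to 0.91 for *Dnmt3a*, 0.59 to 1.51 for *Tet2*, 0.85 to 1.16 for *Tet3*, -0.25 to 0.56 for *Tdg* and -0.065 to 0.39 for *Acvr1b*. It also gave 1103 to 2923 higher and 754 to 2618 lower genes of all tested, 3 to 15 higher and 11 to 33 lower pathway genes, and -0.46 to 0.35 for the difference in the ratio of *Tet3* to *Tet2*. With 1 library left in a group, that library is assumed to vary like those of the other group. On the T cell receptor scale 0 of the 9 genes were higher and 7 lower, 48 of all genes were higher and 12803 lower, and 0 pathway genes were higher and 82 lower. The log2 fold changes there were -1.73 for *Dnmt1*, -1.43 for *Dnmt3a*, 0.19 for *Dnmt3b*, -1.97 for *Mbd2*, -0.13 for *Tet1*, -1.22 for *Tet2*, -1.18 for *Tet3*, -1.96 for *Tdg* and -2.01 for *Acvr1b*. Among the named pathway genes below 0 on that scale only were *Mbd1* (-1.07), *Uhrf2* (-2.03), *Zbtb38* (-1.31), *Neil1* (-1.17), *Ogt* (-1.58), *D2hgdh* (-1.37), *Mtr* (-1.23), *Chd4* (-1.30) and *Gatad2b* (-0.94). The scale itself moved the median of all genes to -2.19. Against the mitotic list, the difference for *Uhrf1* relative to cycling genes was 0.016.

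Same-numbered libraries did not deviate together (correlation -0.24). With 2 libraries per group, this single value cannot decide whether the replicate numbers pair them. With the number as a replicate block, *Dnmt3a* was at 0.75 (adjusted p = 0.065, edgeR), 4 of the 9 genes were higher and 1 lower, as were 1768 and 1444 of all genes tested, and 6 pathway genes were higher and 17 lower. With the numbers crossed, chosen after the data were seen, 5 of the 9 genes were higher and 1 lower, as were 3118 and 3037 of all genes tested, and 12 pathway genes were higher and 36 lower. *Dnmt3b* and *Tet1* were called higher under all 12 alternatives other than the T cell receptor scale. With 11 to 80 counts for *Dnmt3b* and 14 to 25 for *Tdg*, depth limits these genes most.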
